A study of Rattus with 6 samples.

Results

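Ldha and Pgk1 are the 2 genes of glucose breakdown to lactate that could be named among the messenger RNA probes of a circular RNA array, out of 38 named genes on it. Their probes were found by matching the RefSeq transcript printed for each spot to the gene symbols of a RefSeq table. This gave 2 probes for Ldha (NCBI gene 24533), called CUST_6 and A_44_P210461 here, and 1 for Pgk1 (NCBI gene 24644), called CUST_2. The genes were chosen by their log2 differences between 0 h and 2 h in earlier results of the same arrays, where both Ldha probes read higher at 2 h and Pgk1 showed a difference near 0. The comparison of 0 h with 2 h below is therefore a description, and no p-value is given for the members.

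Lactate dehydrogenase A is a subunit of the tetrameric enzyme that reduces pyruvate to lactate and regenerates the NAD+ on which glycolysis depends when oxygen is short. Phosphoglycerate kinase 1 acts earlier in the pathway, transferring a phosphate from 1,3-bisphosphoglycerate to ADP in the first ATP-yielding step. Both genes are textbook targets of the hypoxia-inducible factors. Lactate dehydrogenase protein in blood has long served as a clinical sign of tissue damage, the heart included; the arrays measured RNA and not that protein.

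The arrays held RNA from the blood plasma of 6 adult male SD (Sprague-Dawley) rats, with 3 arrays labelled 0 h and 3 labelled 2 h. Both labels carry the term MIRI, for myocardial ischaemia-reperfusion injury. In the injured rats the left anterior descending coronary artery was tied for 40 min and then released for 2 h before blood was drawn. Sham-operated rats had the thread passed without a knot, but the labels do not say outright that the 0 h samples are these rats. No transgene or drug treatment is described for either group. All samples were digested with RNase R, an exonuclease that removes linear RNA and spares circles, before random-primed Cy3 labelling. A messenger RNA probe here thus reads what was left after a step meant to remove its usual target, and whether the signal came from linear or circular RNA was not tested. In plasma, more RNA-releasing cells and more RNA from each of them cannot be told apart.

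Signals are in scanner units after background subtraction. The 75th percentile of an array's probes, controls left out, lay between 56.2 (2 h replicate 1) and 74.7 (2 h replicate 2), the local background had a median of 17 to 19, and 76.3% (2 h replicate 1) to 88.4% (2 h replicate 2) of probes were well above background. All 6 arrays came from 1 scan per the file headers. The header code of each array begins with 1 for every 0 h array and with 2 for every 2 h array. What that digit stands for is not given in the sources used here, and whatever it marks cannot be told apart from the group. Each messenger RNA probe was printed in 10 spots at fixed positions, so that noise within an array could be set against the spread between rats.

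The CUST_6 probe of Ldha read 2.71-fold higher at 2 h than at 0 h, with every 2 h array above every 0 h array. On the 0 h arrays its geometric mean signal over spots was 9.65, 8.51 and 8.11 for replicates 1, 2 and 3. On the 2 h arrays it was 13.7, 47.3 and 21.6 in the same order. The 0 h values lay close together, whereas the 2 h values were spread 2.59-fold from lowest to highest after scaling, with replicate 2 far above the other two. As log2 signal relative to the 75th percentile of its array, the probe stood at -2.87 ± 0.14 on the 0 h arrays (SD, n = 3) and -1.43 ± 0.70 on the 2 h arrays (SD, n = 3), a difference of 1.44 ± 0.32 (SE from limma). The lowest 2 h array exceeded the highest 0 h array by 0.73 on that scale, where the error of the gap from spot noise alone was 0.09. Relative to the 0 h mean, replicates 1, 2 and 3 at 2 h were 1.78-fold, 4.61-fold and 2.42-fold higher.

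**Figure D1:**
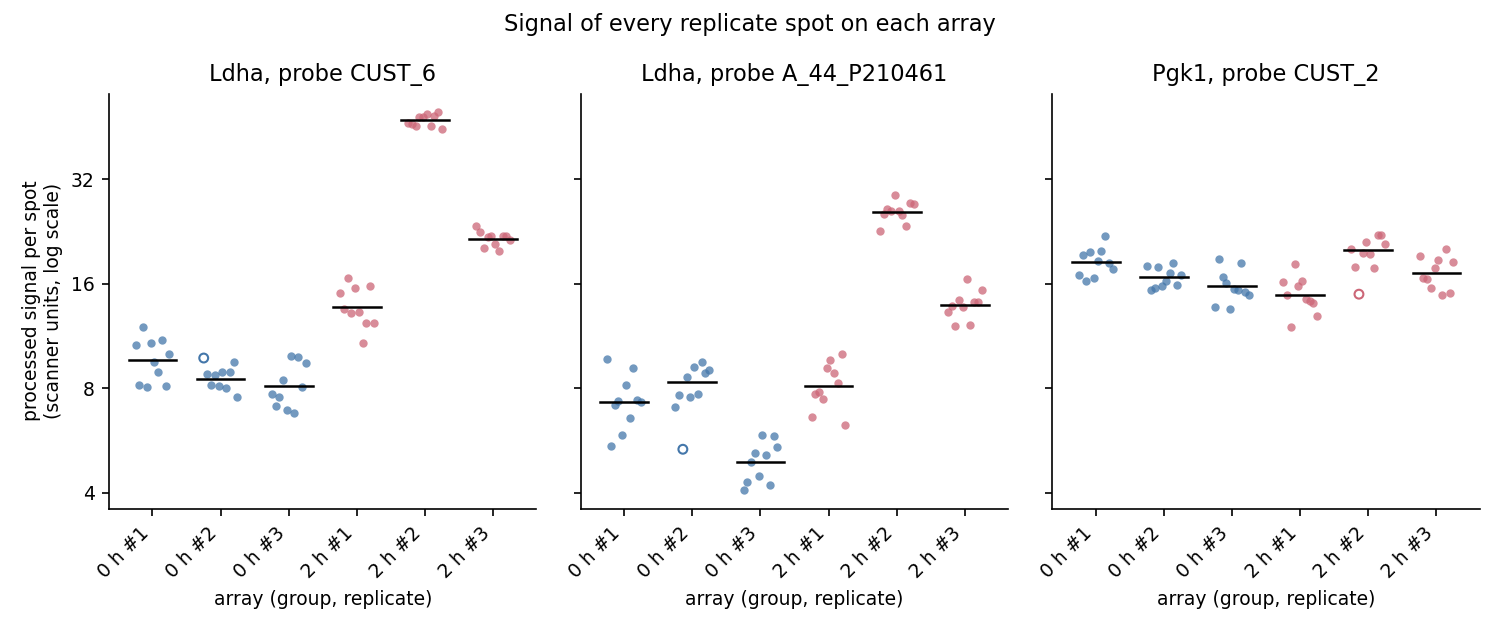
Processed signal (scanner units, log scale) of all 10 spots of each probe on each of the 6 arrays; filled points are kept spots, open circles the 3 spots the scanner software called outliers, bars the geometric mean of kept spots, blue 0 h and red 2 h. The CUST_6 spots of 2 h replicate 2 lie between 44.6 and 49.8 with no spot of another array near them, while the Pgk1 spots of all arrays overlap.

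The second Ldha probe, A_44_P210461, read 2.09-fold higher at 2 h, but its groups were barely apart. Its signal was 7.32, 8.33 and 4.91 on 0 h replicates 1, 2 and 3. On 2 h replicates 1, 2 and 3 it was 8.10, 25.8 and 13.9. In processed signal before scaling, 2 h replicate 1 was thus dimmer than 0 h replicate 2, and the groups overlapped. After scaling the probe stood at -3.25 ± 0.46 on the 0 h arrays (SD, n = 3) and -2.19 ± 0.63 on the 2 h arrays (SD, n = 3), a log2 difference of 1.07 ± 0.35 (SE from limma). The scaled gap between those 2 arrays was 0.05, smaller than its error of 0.09 from spot noise, so the lack of overlap was not larger than that noise. This error does not cover a shift shared by all spots of an array. The median spot intensity was 30.75 on 2 h replicate 1 and 25.5 on 0 h replicate 2, with a local background of 18 on both. Such a shift was not tested. On 0 h replicate 3 only 5 of 10 spots were well above background, although 10 of 10 were positive and significant by the scanner software. On the other arrays every kept spot of the probe was well above background.

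Pgk1 read nearly the same in both groups. Its signal was 18.5, 16.7 and 15.7 on 0 h replicates 1, 2 and 3, and 14.8, 20.1 and 17.2 on the 2 h replicates. The brightest and the dimmest of these arrays both belonged to the 2 h group. After scaling the values were -1.91 ± 0.14 on the 0 h arrays (SD, n = 3) and -1.91 ± 0.01 on the 2 h arrays (SD, n = 3), with all 2 h arrays inside the 0 h range. The log2 difference was -0.0013 ± 0.11 (SE from limma), with a 95% interval of -0.26 to 0.25. Without 0 h replicate 3, the lowest scaled 0 h array, it was -0.08 and the 2 h arrays then lay below both remaining 0 h arrays. All kept Pgk1 spots were well above background, 30 of 30 at 0 h and 29 of 29 at 2 h.

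**Figure D2:**
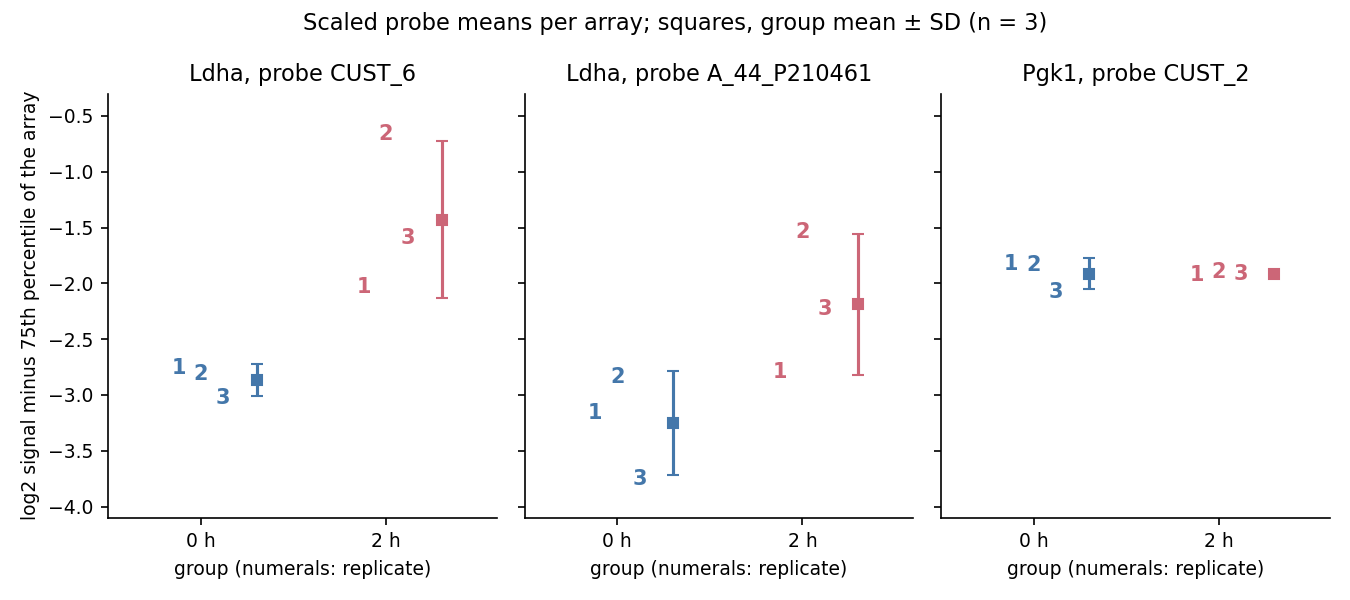
Scaled log2 signal of each probe on each array, with numerals for the replicate and squares for the group mean ± SD (n = 3); the scale is log2 signal minus the 75th percentile of the array. For both Ldha probes the 2 h arrays run in the order 1, 3, 2 from low to high, and for Pgk1 the 2 h values span 0.03 against 0.25 at 0 h.

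The replicate spots showed how far the differences depended on place on the array. For the CUST_6 probe, all 10 positions had every 2 h value above every 0 h value, and the log2 difference per position ran from 1.23 to 1.57. For A_44_P210461 the mean was higher at 2 h at 10 of 10 positions, with differences of 0.92 to 1.36, but the groups were free of overlap at only 6 of them. Pgk1 had a higher mean at 2 h at 5 of 10 positions, with differences from -0.18 to 0.22. The Ldha spots lay between rows 8 and 186 of the array, and neither probe's difference was carried by one region. Positions on one array share their RNA and are not replicates of the condition.

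**Figure D3:**
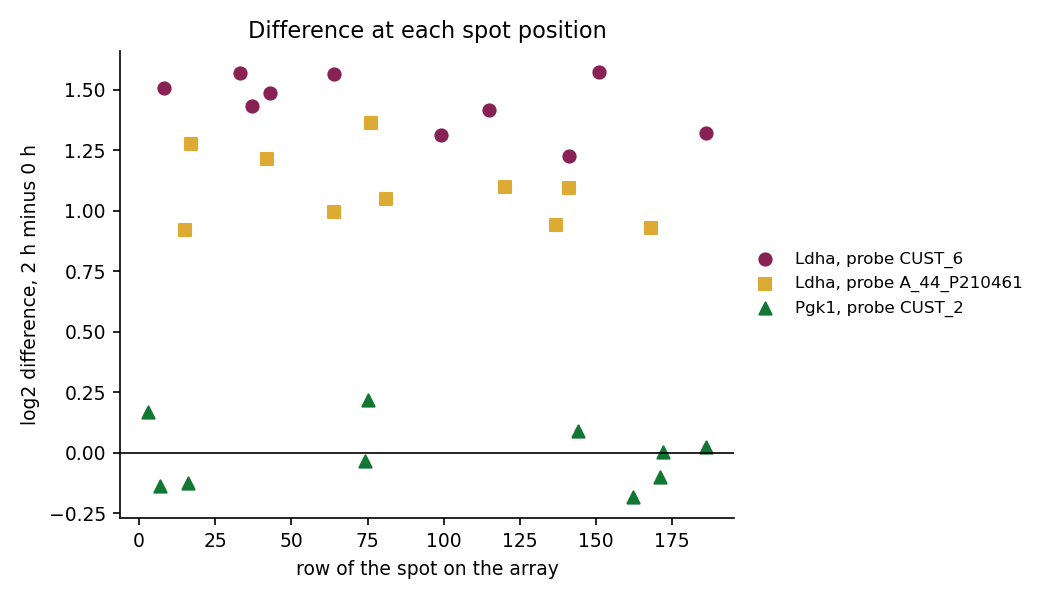
Log2 difference (2 h minus 0 h, scaled) at each of the 10 spot positions of the 3 probes, against the row of the spot on the array. The CUST_6 positions lie between 1.23 and 1.57, those of A_44_P210461 between 0.92 and 1.36, and those of Pgk1 on both sides of 0.

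Counts of single spots differed between the Ldha probes on 2 h replicate 1 only, and spots on the same array are not replicates of the condition. On 2 h replicates 2 and 3, all 10 spots of both Ldha probes were above the highest scaled 0 h spot of the same probe. On 2 h replicate 1 this held for 10 of 10 CUST_6 spots but for 3 of 10 spots of A_44_P210461. For Pgk1 it held for 0 spots on each 2 h array. The SD between spots of one array was 0.06 to 0.21 on the log2 scale for CUST_6 and 0.10 to 0.26 for A_44_P210461. The error of a 2 h array's mean over its spots was 0.02 to 0.06 for CUST_6 and 0.03 to 0.07 for A_44_P210461, beside an SD between the 2 h rats' arrays of 0.70 and 0.63. For Pgk1 the SD between spots was 0.10 to 0.18, and the error of a 0 h array's mean was 0.03 to 0.05, beside an SD of 0.14 between the 0 h arrays.

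The local background at these spots had medians of 16 to 18.5 over all probes and arrays. Without subtraction, the median spot intensity of CUST_6 was 27 to 28 on the 0 h arrays and 34.5, 65.5 and 40 on 2 h replicates 1, 2 and 3. That of A_44_P210461 was 25 to 25.75 at 0 h and 30.75, 44 and 32 at 2 h, so the order of the 2 h arrays was the same before subtraction. In these unscaled intensities every 2 h array was above every 0 h array for both probes, unlike the processed signal of A_44_P210461. Background made up much of the Ldha spot intensity at 0 h, and the size of the fold rested on how it was treated. With each spot's local background added to its processed signal (called background added back), the CUST_6 log2 difference was 0.69. That of A_44_P210461 was 0.42. This sum does not restore the measured intensity, because the processed signal is not the intensity minus the local background. With normexp background correction, run on the median spot intensity and with an offset of 50 added to every signal, they were 0.36 and 0.25; the parts of the model, the offset and the changed input were not separated. The direction held for both probes, and the groups did not overlap in either treatment.

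The 2 h array with the highest Ldha signal, replicate 2, was also the one with the highest 75th percentile and the largest share of probes well above background, and replicate 1 was the lowest 2 h array in all of these. At 0 h this was not so throughout: the share of probes above background was 82.5%, 79.1% and 77.7% for replicates 1, 2 and 3, the order of CUST_6 but not of A_44_P210461, and the 75th percentile was 65.4, 59.7 and 66.3, highest on replicate 3, where both Ldha probes were lowest. The part of this overall brightness in the Ldha difference was not tested. Without 2 h replicate 2 the log2 difference was 1.05 for CUST_6 and 0.74 for A_44_P210461. Without 2 h replicate 1 it was 1.74 and 1.37.

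Ratios between probes on the same array do not depend on the scaling. They show unequal change and not unequal amounts of RNA, because probes differ in how well they bind. The log2 ratio of CUST_6 to Pgk1 was -0.94, -0.97 and -0.95 on 0 h replicates 1, 2 and 3. It was -0.11, 1.24 and 0.33 on the 2 h replicates, all above the 0 h arrays. The ratio was almost constant at 0 h (SD 0.02, n = 3), and the difference between groups was 1.44 ± 0.40 (SE), with a 95% interval of 0.34 to 2.54. For A_44_P210461 over Pgk1 the log2 ratio was -1.34, -1.0 and -1.68 at 0 h and -0.87, 0.36 and -0.31 at 2 h, also without overlap. Its difference was 1.07 ± 0.41 (SE), with a 95% interval of -0.06 to 2.19. Because the genes were chosen on this contrast, the intervals given for the members describe the spread between arrays and are not tests.

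Between the Ldha probes themselves, the log2 ratio of CUST_6 to A_44_P210461 was 0.40, 0.03 and 0.72 at 0 h and 0.76, 0.88 and 0.63 at 2 h. These overlapped, and the probes' differences differed by 0.37 ± 0.21 (SE), with a 95% interval of -0.22 to 0.96. Both probes ranked the 2 h arrays alike. At 0 h CUST_6 was highest on replicate 1 and A_44_P210461 on replicate 2, and both were lowest on replicate 3. The sources used here hold neither the probe sequences nor their place in the transcript, so cross-reaction with related genes and with exons shared by circles was not tested.

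To place these values, the same counts were made over all probes well above background on at least 3 arrays. Of 41 messenger RNA probes, named or not, 10 had every 2 h array above every 0 h array (24.4%), both Ldha probes among them, and 4 were lower without overlap (9.76%). Among 11656 circRNA probes 1341 were higher without overlap (11.5%) and 919 lower (7.88%). Without scaling only 3 messenger RNA and 614 circRNA probes were higher without overlap, CUST_6 still among them and A_44_P210461 not. The circRNA count was 2122 without 0 h replicate 2 and 2575 without 2 h replicate 1. Differences of at least 2-fold higher at 2 h were seen for 4 of 41 messenger RNA probes (9.76%) and 140 circRNA probes (1.2%). CUST_6 had the highest difference of the messenger RNA probes and A_44_P210461 the third, while 23 of them lay above Pgk1. Of the circRNA probes, 22 had a higher 2 h minus 0 h difference than CUST_6 and 106 a higher one than A_44_P210461, decreases not counted. The median difference was 0.03 over the messenger RNA probes and -0.0045 over the circRNA probes. After Benjamini-Hochberg adjustment over all these probes, limma called 0 of either kind, and 11 messenger RNA probes (26.8%) and 1502 circRNA probes (12.9%) had an unadjusted p under 0.05; other treatments of background and spread called up to 166 circRNA probes after adjustment.

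**Figure D4:**
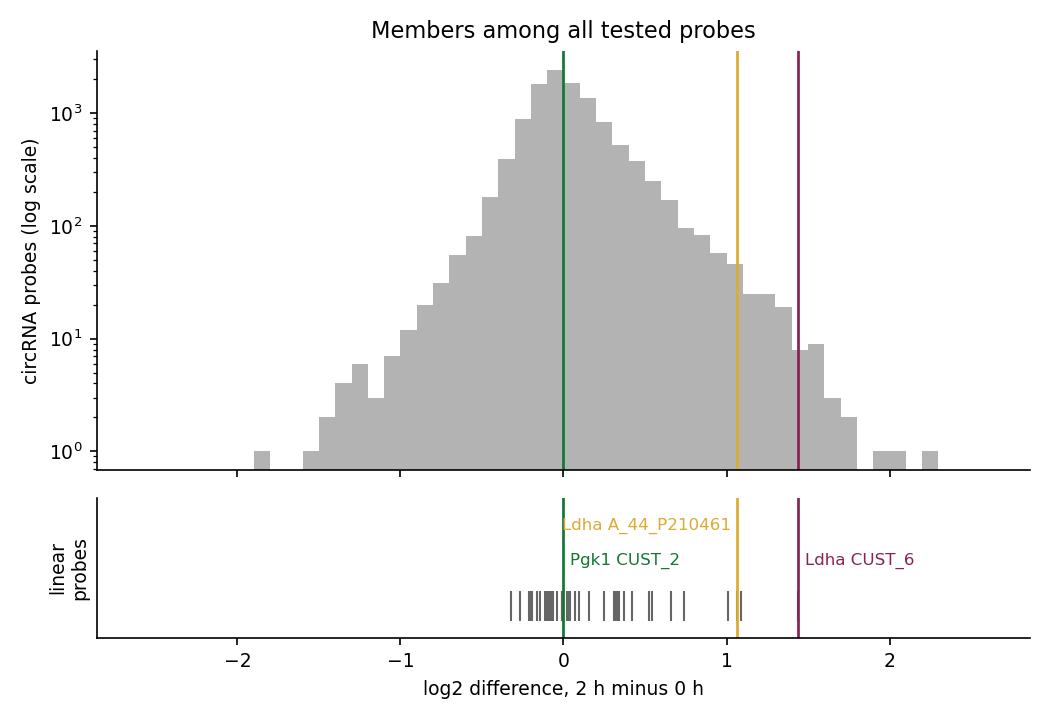
Log2 differences (2 h minus 0 h) of 11656 circRNA probes as a histogram with a log count axis, and of 41 messenger RNA probes as ticks below; vertical lines mark the 3 member probes. Pgk1 lies at the centre of both distributions, and the Ldha probes lie in their upper tails with 22 and 106 circRNA probes beyond them.

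Other enzymes of the pathway were scarcely represented among the named probes. Of 23 glycolysis genes, from glucose transporters to pyruvate kinase, 1 had a named probe, Pgk1. Of 7 genes for lactate dehydrogenase subunits and lactate transporters, 1 had one, Ldha. Because 23 of the 62 messenger RNA probes had no symbol here, this does not show which other genes the array holds. Other steps of glycolysis, and Ldhb, the subunit that predominates in heart, were therefore not examined. No named probe matched the 6 red cell, 5 platelet, 5 leukocyte and 8 cardiomyocyte marker genes looked for, and cells as sources of plasma Ldha RNA were not examined. Of 5 hepatocyte genes, Cyp2e1 alone had a probe, with a log2 difference of 0.03 ± 0.13 (SE from limma).

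Of 14 common reference genes 8 had a probe. Their log2 differences ran from -0.32 for B2m, which encodes beta-2-microglobulin, to 1.01 for Rplp1, an acidic protein of the ribosomal stalk. The median of these 8 probes was 0.05, against 0.03 over all 41 messenger RNA probes. Of the 8 probes, 2 were higher at 2 h without overlap and 0 lower, against 24.4% and 9.76% of all 41 probes.

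Profiles over the 6 arrays were compared by the root mean square difference between scaled log2 values, each probe centred on its own mean. This measure includes the difference between 0 h and 2 h by which the members were chosen, so likeness in it partly restates that difference. For CUST_6, whose own values deviate from their mean by 0.83 in the same measure, the nearest of the 40 other messenger RNA probes was Rplp1 at 0.27, followed by A_44_P210461 at 0.28 and the unnamed probe for ENSRNOT00000072358 at 0.29. The second Ldha probe was nearest to Rplp1 at 0.18, then to CUST_6 at 0.28 and to Pdcd10, an adaptor protein gene, at 0.32. Rplp1 stood at -3.47, -3.68 and -4.18 on 0 h replicates 1, 2 and 3 and at -3.52, -2.03 and -2.76 on the 2 h replicates. Its 2 h arrays ran in the same order as those of Ldha, but its groups overlapped, and it was well above background on 1 of 3 arrays at 0 h. Pgk1 varied by 0.08 in this measure, and Fgf2, a fibroblast growth factor, at 0.04, Pdk3, a pyruvate dehydrogenase kinase, at 0.04 and Ptk2b, a tyrosine kinase, at 0.05 were nearest to it.

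**Figure D5:**
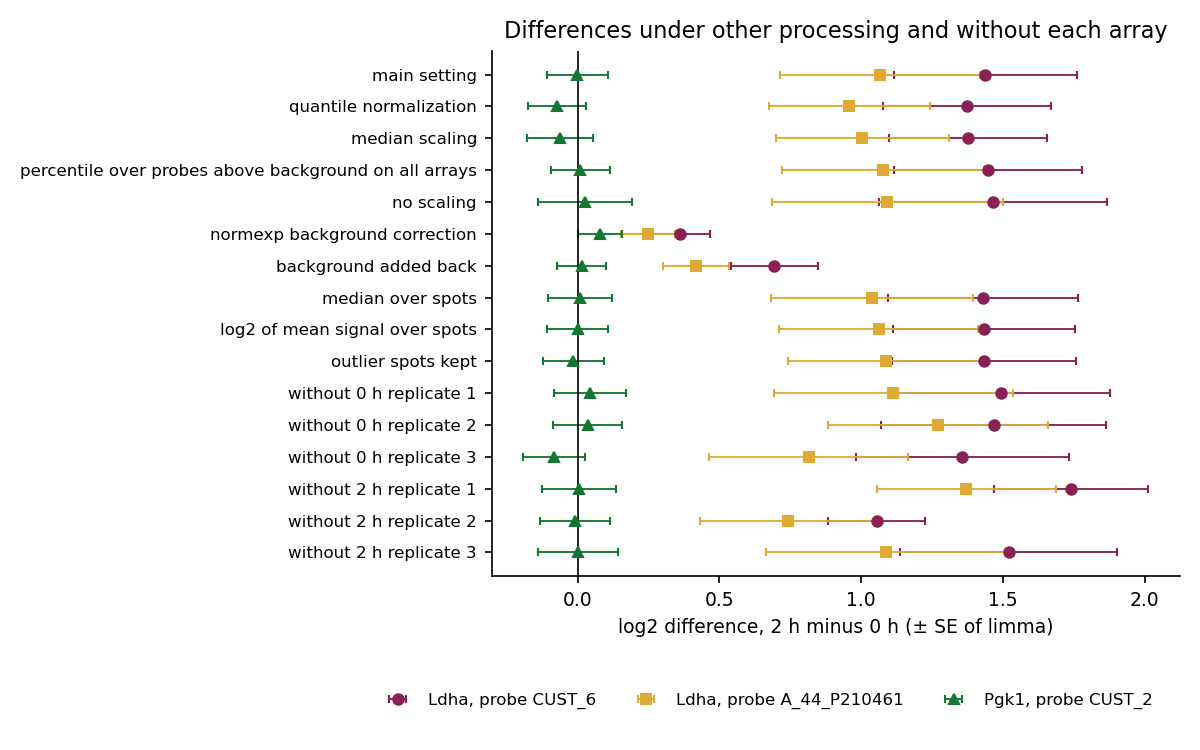
Log2 difference (2 h minus 0 h, ± SE of limma) of the 3 probes under the main setting, other scaling, background and spot averaging, and without each array in turn. Both Ldha probes are above 0 in every setting shown, lowest with normexp (0.36 and 0.25), and Pgk1 stays between -0.08 and 0.08.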

How the data were processed

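The deposited values are linear intensity per spot. Per the file headers, Feature Extraction 11.0.1.1 read the scans. The processed signal is background-subtracted, but it does not equal a spot's median intensity minus its local background. For example, an A_44_P210461 spot on 2 h replicate 1 had a median intensity of 36, a local background of 18 and a processed signal of 8.30. How the software reached that value was not examined. The unequal percentiles of the arrays show no scaling between them. The scanner flags (other columns) were used as deposited. The authors' value table lists circRNA probes and was not used here.

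Spots flagged as outliers were dropped (3 of 180 member spots), log2 signal was averaged over a probe's spots, and each array's 75th percentile over non-control probes was subtracted. A probe counted as well above background where at least 50% of its kept spots were. Probes above background on at least 3 of 6 arrays entered lmFit and eBayes of limma 3.58.1 under R 4.3.3. Its two-sided p-values were adjusted by Benjamini-Hochberg, with a threshold of 0.05, over 41 messenger RNA and 11656 circRNA probes. The fit was tested on simulated data. With 3 arrays a group, their number limits the precision; p-values measure only the spread between these samples.

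Symbols came from a RefSeq table of assembly GRCr8; 39 of 62 messenger RNA probes matched and 23 did not. The file headers name another build, so no coordinates are given, and no sequence was at hand. Members, lists and tests were chosen with earlier results of these data known. Named were the members and, for each, the 3 other messenger RNA probes of most similar profile, and reference genes by their range.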

Additional observations from a re-analysis of the deposited data

How the results depend on the processing

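The member log2 differences moved by more than the SD between replicates only with the background treatments. With normexp on the median spot intensity (offset 50) they were 0.36 for CUST_6, 0.25 for A_44_P210461, and 0.28 and 0.17 for their ratios to Pgk1. With the local background added to the processed signal they were 0.69, 0.42, 0.68 and 0.40. Leaving out 1 array gave 1.05 to 1.74 for CUST_6, 0.74 to 1.37 for A_44_P210461, -0.08 to 0.04 for Pgk1, 1.06 to 1.74 and 0.75 to 1.37 for the ratios to Pgk1, and 0.20 to 0.54 for the ratio between the Ldha probes. Both Ldha differences were positive in 17 of 17 alternatives. Trended robust eBayes and the replicate block are among these, and neither can change a difference in this balanced design. The groups of A_44_P210461 overlapped without scaling and with the median over spots. Pgk1 was negative in 7 of 17, never beyond its SD. The ratio between the Ldha probes was free of overlap in 4 of 11 alternatives and positive in all 11. Probes higher without overlap numbered 3 (messenger RNA) and 614 (circRNA) without scaling, and 10 to 14 and 1588 to 2575 without 1 array, where fewer arrays overlap less often. The adjusted limma count of 0 circRNA probes was 12 under normexp and 166 when the local background was added to the processed signal. It was 1 with the filter on all arrays and 38 with trended robust eBayes. The cause was not tested. In a fit with a replicate block, the Ldha differences stayed 1.44 and 1.07 (SE 0.28 and 0.25), Pgk1 -0.0013 (SE 0.12) and the adjusted count 0; samples share only a number (correlations of same-numbered arrays -0.115, 0.019 and -0.068, and 0 of 6 arrays closest to their own number). A slide block was not run because all arrays come from 1 scan. Ldha signal was low over background at 0 h, and the size of its folds changed with the background treatment. This limits how far the folds can be read.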
